A study of Mus musculus with 16 samples.

Results

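The mitochondrial ribosomal proteins are the nuclear-encoded proteins of the ribosome that works inside mitochondria. Their genes were taken as the genes of the count table whose symbol begins with Mrpl or Mrps followed by a digit, a choice by name and not by level. The rule gave 77 of the 20295 genes in the table, 48 named for the large subunit and 29 for the small subunit. Of these, 48 belong to protein families that bacterial ribosomes also have, 28 are found in mitochondria only, and 1, Mrps36, is now known as a component of the 2-oxoglutarate dehydrogenase complex and not of the ribosome.

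The study asked whether the transcriptional response of brown adipocytes to lipolysis needs fatty acids to be activated or oxidized. RNA was sequenced from 16 samples of a wild-type mouse brown preadipocyte line, immortalized with SV40 large T antigen, differentiated in culture and treated on day 7. SR-3420, a ligand that frees ABHD5 from perilipin so that it can activate the lipase ATGL, was given for 3 h, after 1 h of pretreatment with or without triacsin C (TC, spelled Triascin C in the labels), which blocks long-chain acyl-CoA synthetases, or etomoxir (ETO), which blocks the mitochondrial carnitine palmitoyltransferase CPT1. All samples come from this 1 line, and the study's methods describe its RNA-seq replicates as independent experiments.

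The 6 groups were Vehicle (n = 2, replicates 2 and 3), SR-3420 at 10 µM (n = 2, replicates 1 and 3), TC at 5 µM (n = 3), TC at 5 µM with SR-3420 at 10 µM (TC+SR-3420, n = 3), ETO at 50 µM (n = 3) and ETO at 50 µM with SR-3420 at 10 µM (ETO+SR-3420, n = 3). These concentrations are those of the labels, and figure legends of the study give a higher one for SR-3420. Total counts per sample ran from 9452861 to 25670624. The Vehicle samples held 14032494 and 10097582 counts, the SR-3420 samples 19156037 and 15667121, and the other groups between 9452861 and 25670624. Below, values of a group are listed in the order of the replicate numbers.

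The labelled cell type was checked against 12 brown adipocyte markers. The general adipocyte genes were abundant, with means over the 16 samples of 5831 CPM (counts scaled to library size) for the fatty acid-binding protein gene Fabp4 and 2065 CPM for the adipokine gene Adipoq. Of the brown adipocyte genes, the coactivator gene Ppargc1a averaged 45.5 CPM, Prdm16 21.9 CPM, Cidea 18.7 CPM and Elovl3 12.1 CPM, whereas the uncoupling protein gene Ucp1 averaged 2.16 CPM and the deiodinase gene Dio2 had at most 2 counts in any sample. Markers of other cells were near the floor for immune cells (6 genes, summed level 3.41 to 19.1 CPM, led by Cd68), endothelium (5 genes, 0.86 to 3.58 CPM, led by Kdr) and muscle (6 genes, 2.65 to 13.0 CPM, led by Acta1). The 8 preadipocyte and fibroblast markers summed to between 1107 and 4768 CPM, led by the collagen gene Col1a1.

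The mitochondrial ribosome translates the few proteins encoded by mitochondrial DNA, all of them membrane subunits of the respiratory chain and of ATP synthase. Its ribosomal RNAs are made inside the organelle, whereas all of its proteins are encoded in the nucleus, made in the cytosol and imported, so that the 2 genomes have to be expressed together. Brown adipocytes are rich in mitochondria, and their heat production rests on a respiratory chain that this ribosome helps to build.

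The members lie on 17 chromosomes. Their counted length had a median of 1051 bases, against 2340 bases over all genes of the table, and their median GC content was 50.4% against 49.3%. By symbol, 4 members (Mrpl23, Mrpl27, Mrpl48 and Mrps36) have named pseudogene copies that could share reads with them, and 8 members overlap another gene of the table. The sources used here do not say whether counting used the strand, so the counts of those 8 are uncertain.

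All 77 members passed the filter on low counts. Compared per length, as RPKM (CPM per kilobase of counted length) averaged over the 16 samples, they spanned 204-fold around a median of 41.1, and 70 of them reached 10 RPKM. The highest level was that of Mrps6, a small subunit protein at the platform, with 249 RPKM. It was followed by Mrpl12 of the ribosomal stalk at 157 RPKM, Mrps34 at 134 RPKM, Mrpl2, which sits by the peptidyl transferase centre, at 117 RPKM, and Mrps26 at 115 RPKM. Mrps6 shares its span with the transporter gene Slc5a3.

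At the other end stood Mrpl23, a protein of the polypeptide exit, with 1.22 RPKM and only 5 to 14 counts per sample. Next above it came Mrps36 at 4.33 RPKM, Mrpl1 of the mobile stalk at the exit of tRNA at 5.46 RPKM, Mrps33 at 5.52 RPKM and Mrpl35 at 7.91 RPKM. Both ends of the span are uncertain, since Mrps6 overlaps another gene and Mrpl23 has few counts and a named pseudogene.

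**Figure D1:**
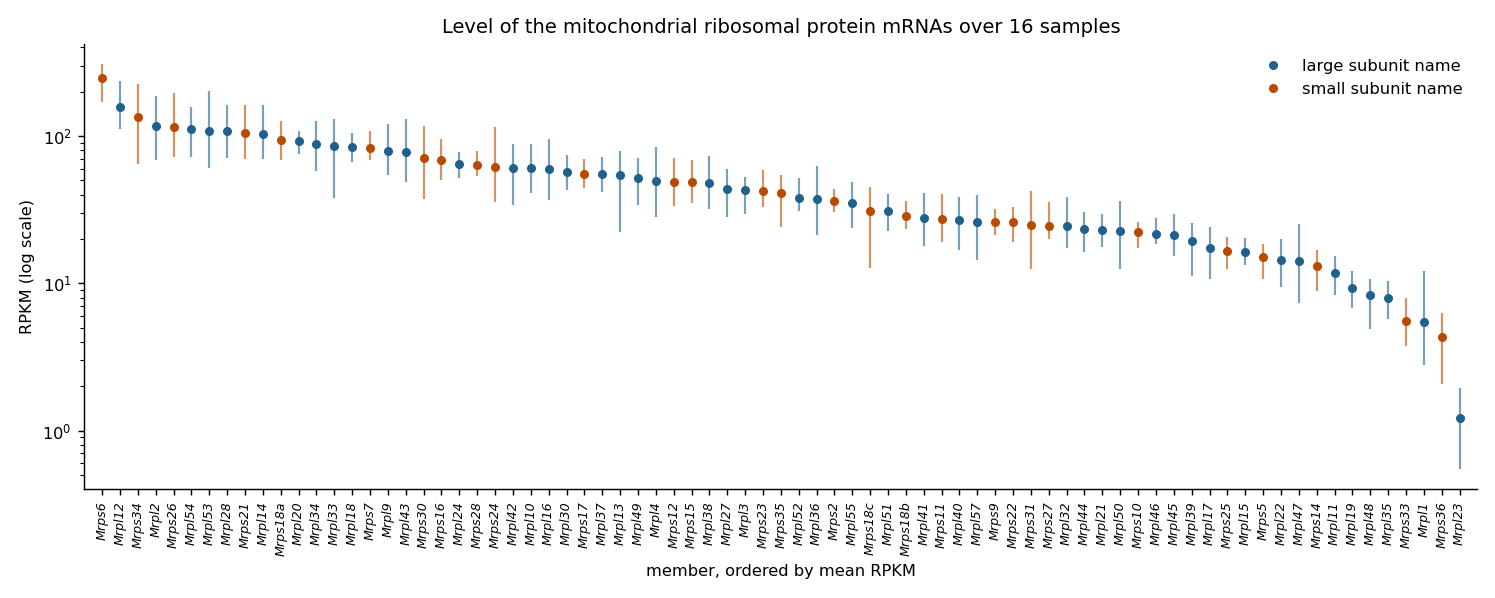
Mean RPKM (log axis) of each of the 77 members over 16 samples, ordered from high to low; vertical lines run from the lowest to the highest sample, and colour gives the subunit in the gene's name. Mrps6 is highest at 249 RPKM and Mrpl23 lowest at 1.22 RPKM.

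Before single genes, the members were followed as a group through the samples. Together they took 0.463% and 0.441% of all counts in the Vehicle samples and 0.364% and 0.389% in the SR-3420 samples. The share was 0.468%, 0.497% and 0.499% with TC and 0.333%, 0.353% and 0.343% with TC+SR-3420. With ETO it was 0.451%, 0.458% and 0.432%, and with ETO+SR-3420 0.337%, 0.346% and 0.347%. Every sample given SR-3420 lay below every sample without it. The 95% Wilson interval of each share was at most 0.00435 percentage points to either side, which covers counting error only, since reads without molecular identifiers are not independent molecules.

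Set against the mean of the Vehicle samples, the median member was at a log2 difference of −0.31 and −0.18 in the SR-3420 samples, 0.12, 0.18 and 0.19 with TC, −0.34, −0.31 and −0.27 with TC+SR-3420, −0.05, −0.03 and −0.09 with ETO, and −0.38, −0.36 and −0.38 with ETO+SR-3420. The median over all genes tested stayed between −0.05 and 0.08 in the same samples. All samples with SR-3420 were lowest, Vehicle and ETO lay above them and TC on top, but the place of TC turned with the trends over gene length and GC content of each library removed (median of TC against Vehicle −0.08). In bulk RNA, a lower level can mean fewer cells of a type or less RNA per cell, and these cannot be told apart.

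**Figure D2:**
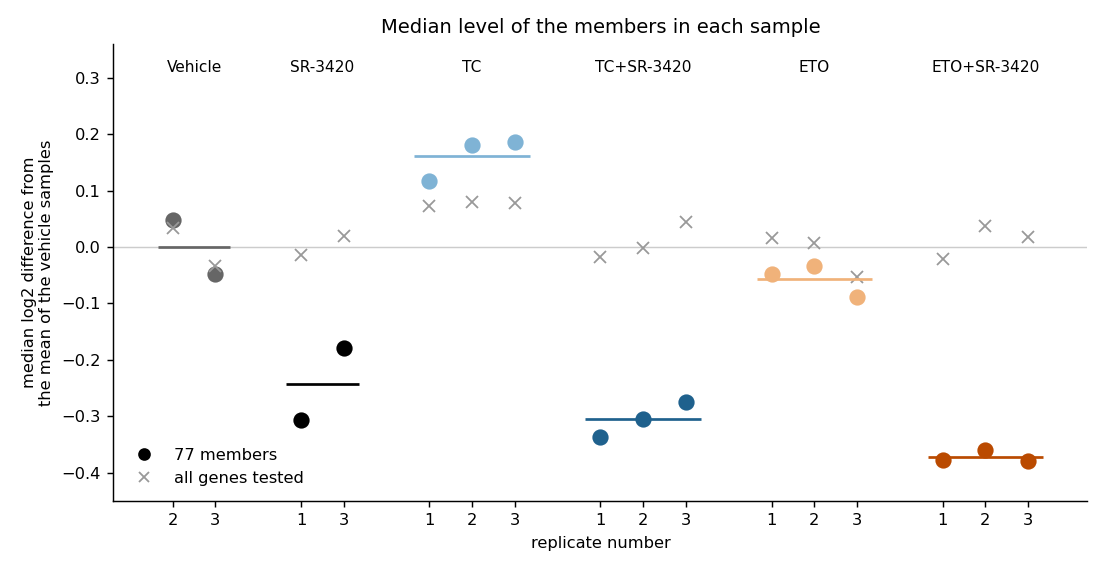
Median over the 77 members (circles) and over all genes tested (crosses) of the log2 difference from the mean of the Vehicle samples, for each of the 16 samples; horizontal bars are group means. The members' medians are above 0.11 in all 3 TC samples and below −0.17 in all 8 samples given SR-3420, while the crosses stay between −0.05 and 0.08; no trend over length or GC is removed here.

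SR-3420 alone was compared with Vehicle to see the response to lipolysis without an inhibitor. Most members were somewhat lower, 62 of 77 with a log2 fold change below 0, and the median was −0.22 against 0.00 over all genes. No member passed edgeR's quasi-likelihood test (Benjamini-Hochberg adjustment across the 12786 genes tested, adjusted p under 0.05), whereas 2.79% of all genes were lower and 4.75% higher. At an unadjusted p under 0.05 there were 12 members (15.6%, against 21.8% of all genes), and DESeq2 placed 3 lower (3.9%, against 5.47% of all genes). All p-values here measure the spread between these samples, and each group of this comparison had only 2.

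The smallest p belonged to Mrpl51, a mitochondria-specific protein of the large subunit, with 61.4 and 54.4 CPM in Vehicle and 45.2 and 43.2 CPM with SR-3420. Its groups did not overlap, but the change of −0.39 ± 0.13 (log2, SE) had an edgeR adjusted p of 0.0925. Mrpl11, at the base of the stalk, stood at 35 and 43.7 CPM against 24.6 and 29.3 CPM (−0.55 ± 0.19, edgeR adjusted p = 0.109). Mrpl34, one of the smallest proteins of the large subunit, stood at 78.0 and 62.7 CPM against 51.1 and 50.3 CPM (−0.47 ± 0.17, edgeR adjusted p = 0.111). In each of these 3 genes both SR-3420 samples were below both Vehicle samples.

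Triacsin C alone was set against Vehicle to see what blocking fatty acid activation does at rest. The members tended upward, 63 of 77 above 0 with a median log2 fold change of 0.20 against 0.07 over all genes, but this direction turned (median −0.08) once each library's trend over gene length and GC content was removed. Only 1 member rose, the large subunit gene Mrpl52, and none fell, while 4.77% of all genes were higher and 6.94% lower. Once length and GC trends were removed, 4 members were lower and 1, not Mrpl52, higher, beside 13% of all genes lower and 9.35% higher. At an unadjusted p under 0.05 there were 8 members (10.4%, against 24.3% of all genes), and DESeq2 called 3 higher and 1 lower, against 6.82% and 9.1% of all genes.

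Mrpl52 had 13.1 and 13.6 CPM in Vehicle and 20.4, 21.4 and 19.7 CPM with TC, a change of 0.62 ± 0.15 (log2, SE; edgeR adjusted p = 0.0145). All 3 TC samples were above both Vehicle samples, and above the ETO samples too, which had 14.6, 12.8 and 13.4 CPM. The call rests on both Vehicle samples, since leaving out replicate 2 or replicate 3 of Vehicle gave an edgeR adjusted p of 0.106 or 0.092. It was also lost with the length and GC trends removed (0.11, edgeR adjusted p = 0.772), without the filter on low counts and when only these 2 groups were fitted. The next smallest p were those of Mrps23 (0.38 ± 0.12, edgeR adjusted p = 0.0548), which overlaps Cuedc1, and of Mrps27 (−0.42 ± 0.14, edgeR adjusted p = 0.0628), an RNA-binding protein with pentatricopeptide repeats. Neither passed.

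Etomoxir alone left the members close to Vehicle, with a median log2 fold change of −0.06 against 0.01 over all genes. No member was called by edgeR or by DESeq2, 1 had an unadjusted p under 0.05 (1.3%, against 2.21% of all genes), and of all genes only 0.00782% were lower and 0.0156% higher. Mrpl46, whose gene lies head to head with that of Mrps11, had the smallest p, at −0.30 ± 0.13 (edgeR adjusted p = 1.00). Mrps27 at −0.25 and Mrps18a at −0.22 followed, and neither passed.

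SR-3420 was added to cells treated with triacsin C to ask whether lipolysis acts without fatty acid activation. Here 36 of the 77 members fell and none rose, that is 46.8%, while 19.7% of all genes tested were lower and 17.3% higher. The median log2 fold change was −0.50 against 0.02 over all genes, and 74 members were below 0, or 56 with the length and GC trends of each library removed. Lower were 23 of 48 large subunit names and 13 of 29 small subunit names, and by family 23 of the 48 that bacteria share and 13 of the 28 found in mitochondria only.

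The call came from edgeR's quasi-likelihood test as above. An unadjusted p under 0.05 was found for 50 members, all of them lower (64.9%, against 46.5% of all genes in either direction), and DESeq2 called 42 lower and none higher (54.5% lower, against 20.7% of all genes). In 55 members every TC+SR-3420 sample lay below every TC sample, against 28.5% of all genes. The 36 became 21 without TC replicate 2 and 23 without TC+SR-3420 replicate 2.

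The count changed when trends over gene length and GC content were removed. In the TC libraries the deviation of a gene from its mean over all samples had a correlation with log2 counted length of −0.31, −0.41 and −0.35 (across 12681 genes of 1 library, which share its preparation), against −0.08 to 0.26 in the other 13 libraries, so that short genes stood higher with TC. Spline trends over length and GC alone placed the median member at 0.21, 0.32 and 0.28 (log2, against the mean of all samples) with TC and at −0.08, −0.05 and −0.09 with TC+SR-3420. With these trends removed, which also takes away any response that follows length or GC, 20 members were lower and 1 higher, and 14 of the 36 kept their call. The lower ones are 26% of the members, near the 23.7% of all genes then called lower, whereas 28% of all genes were higher. The members' median was −0.18 against 0.06 over all genes. By subunit the lower members were 16 of 48 large and 4 of 29 small subunit names. The 1 higher member was Mrps28 (0.34), named for the small subunit. The medians of SR-3420 against Vehicle (−0.17) and of ETO+SR-3420 against ETO (−0.20) were then much the same.

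Mrps35, a mitochondria-specific protein of the small subunit, had the smallest p. It stood at 55.9, 58.2 and 55.9 CPM with TC and at 27.4, 31.3 and 25.6 CPM with TC+SR-3420, or 56.7 ± 1.32 against 28.1 ± 2.90 (SD, n = 3). The groups were far apart, and the fall of 1.01 on the log2 scale (SE 0.13) had an edgeR adjusted p of 8.53e-05. Its gene has 8 exons in the longest coding transcript and lies at chr6:146991292-147019424 in mm9, plus strand. With the length and GC trends removed its fall was 0.82, still past the threshold.

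Mrpl9, whose bacterial counterpart reaches out from the base of the L1 stalk, had 171, 193 and 180 CPM with TC and 102, 109 and 87.2 CPM with TC+SR-3420 (−0.87 ± 0.12, edgeR adjusted p = 0.000155). Mrpl36, a small zinc-binding protein of the large subunit, had 42.6, 56.1 and 47.5 CPM against 23.6, 24.5 and 19.9 CPM (−1.10 ± 0.18, edgeR adjusted p = 0.000342). Neither gene's groups overlapped. In Vehicle, Mrpl36 had 38.7 and 30.8 CPM, so its TC samples were above Vehicle and its TC+SR-3420 samples below it. Mrpl9 showed the same order, with 142 and 128 CPM in Vehicle. Both kept their calls with the trends removed, at −0.73 for Mrpl9 and −0.72 for Mrpl36.

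The stalk that recruits translation factors to the ribosome is built of Mrpl12 copies on Mrpl10, with Mrpl11 at its base, and all 3 genes fell. Mrpl10 had 130, 149 and 141 CPM with TC and 86.1, 75.7 and 69.0 CPM with TC+SR-3420 (−0.87 ± 0.13, edgeR adjusted p = 0.000201). Mrpl12 had 167, 223 and 177 CPM against 132, 141 and 109 CPM (−0.57 ± 0.18, edgeR adjusted p = 0.0278), and Mrpl11 41.7, 41.4 and 43.2 CPM against 26.4, 28.7 and 32.6 CPM (−0.53 ± 0.16, edgeR adjusted p = 0.0188). All 3 were lower in every TC+SR-3420 sample than in any TC sample. With the trends removed Mrpl10 kept its call (−0.53, edgeR adjusted p = 3.27e-05), whereas Mrpl11 (−0.36) and Mrpl12 (−0.05) lost theirs.

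The other members with the smallest p were Mrps21 (54.1, 66.1 and 58.6 CPM against 36.8, 37.4 and 32.8 CPM), Mrpl34 (62.0, 81.6 and 75.4 CPM against 37.3, 48.2 and 43.2 CPM), Mrpl51 (50.0, 59.0 and 57.1 CPM against 34.1, 39.7 and 36.1 CPM) and Mrpl41 (52.9, 51.0 and 57.9 CPM against 25.4, 32.0 and 32.7 CPM). Their groups did not overlap, and the falls were 0.74, 0.77, 0.60 and 0.84 on the log2 scale. With the trends removed Mrpl51 (−0.48) and Mrpl41 (−0.48) stayed past the threshold, and Mrps21 (−0.24) and Mrpl34 (−0.18) did not. Mrpl41 overlaps Dph7. Of the 36 lower members, 32 overlap no other gene.

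In the decoding centre of the small subunit, Mrps12 had 38.3, 48.7 and 43.4 CPM with TC and 26.8, 27.6 and 22.8 CPM with TC+SR-3420, a fall of 0.76 (SE 0.19, edgeR adjusted p = 0.00734). Mrpl44, a large subunit protein with an RNase III-like fold, had 41.5, 40 and 43.5 CPM against 24.2, 26.2 and 29.5 CPM and fell by 0.65 (SE 0.13, edgeR adjusted p = 0.00199). The groups were apart in both genes, but neither call was kept with the trends removed (−0.20 for Mrps12 and −0.29 for Mrpl44). Mrpl45, which ties the ribosome to the inner membrane beside the exit tunnel, did not pass (−0.45 ± 0.18, edgeR adjusted p = 0.0609), although all of its TC+SR-3420 samples were lower, and passed with the trends removed (−0.39, edgeR adjusted p = 0.0385).

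None of the 4 members chosen by role as textbook disease genes passed the edgeR test, which says nothing of other members with a link to disease. Mrps34, mutated in Leigh syndrome, came nearest in size, with 130, 201 and 123 CPM against 100, 92.5 and 65.0 CPM (−0.82 ± 0.35, edgeR adjusted p = 0.0861). Mrps16, in which the first defect of a mitochondrial ribosomal protein was described, was at −0.51 ± 0.19 (edgeR adjusted p = 0.051), was called lower by DESeq2 (adjusted p = 0.0422) and turned to 0.04 with the trends removed. Mrps22 was at −0.28 ± 0.18 and Mrpl3, near the peptidyl transferase centre, at −0.26 ± 0.21. The groups did not overlap in Mrps34 and Mrps16 but did in Mrps22 and Mrpl3.

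The paralogues Mrps18a, Mrps18b and Mrps18c descend from 1 bacterial protein and occupy different places, Mrps18a in the large subunit despite its name. Mrps18a had 96.0, 105 and 103 CPM with TC and 71.2, 67.0 and 64.6 CPM with TC+SR-3420, and fell by 0.58 (SE 0.13, edgeR adjusted p = 0.00268), a call lost with the trends removed (−0.06). Mrps18b had 32.5, 37.6 and 38.1 CPM against 33.2, 33.0 and 27.4 CPM (−0.21 ± 0.14, turned to 0.15 with the trends removed), and Mrps18c 20.9, 14.2 and 21.8 CPM against 10.7, 14.0 and 19.6 CPM (−0.36 ± 0.37). The groups of the last 2 overlapped and neither passed; the differences between the paralogues were not tested.

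Mrps30, another large subunit protein with a small subunit name, had 126, 179 and 95 CPM against 114, 82.6 and 59.0 CPM and did not pass (−0.64 ± 0.37). Mrps36, the member outside the ribosome, had 3.98, 3.01 and 4.10 CPM against 2.75, 2.70 and 2.63 CPM and did not pass either (−0.45 ± 0.30). In this fit 3 members were above 0, against 21 with the trends removed, and the 3 are named here after their values were seen: Mrpl47 at 0.26 ± 0.46, Mrpl32 at 0.12 ± 0.34 and Mrpl23 at 0.06 ± 0.47. Each of them had overlapping groups and an SE larger than its change.

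**Figure D3:**
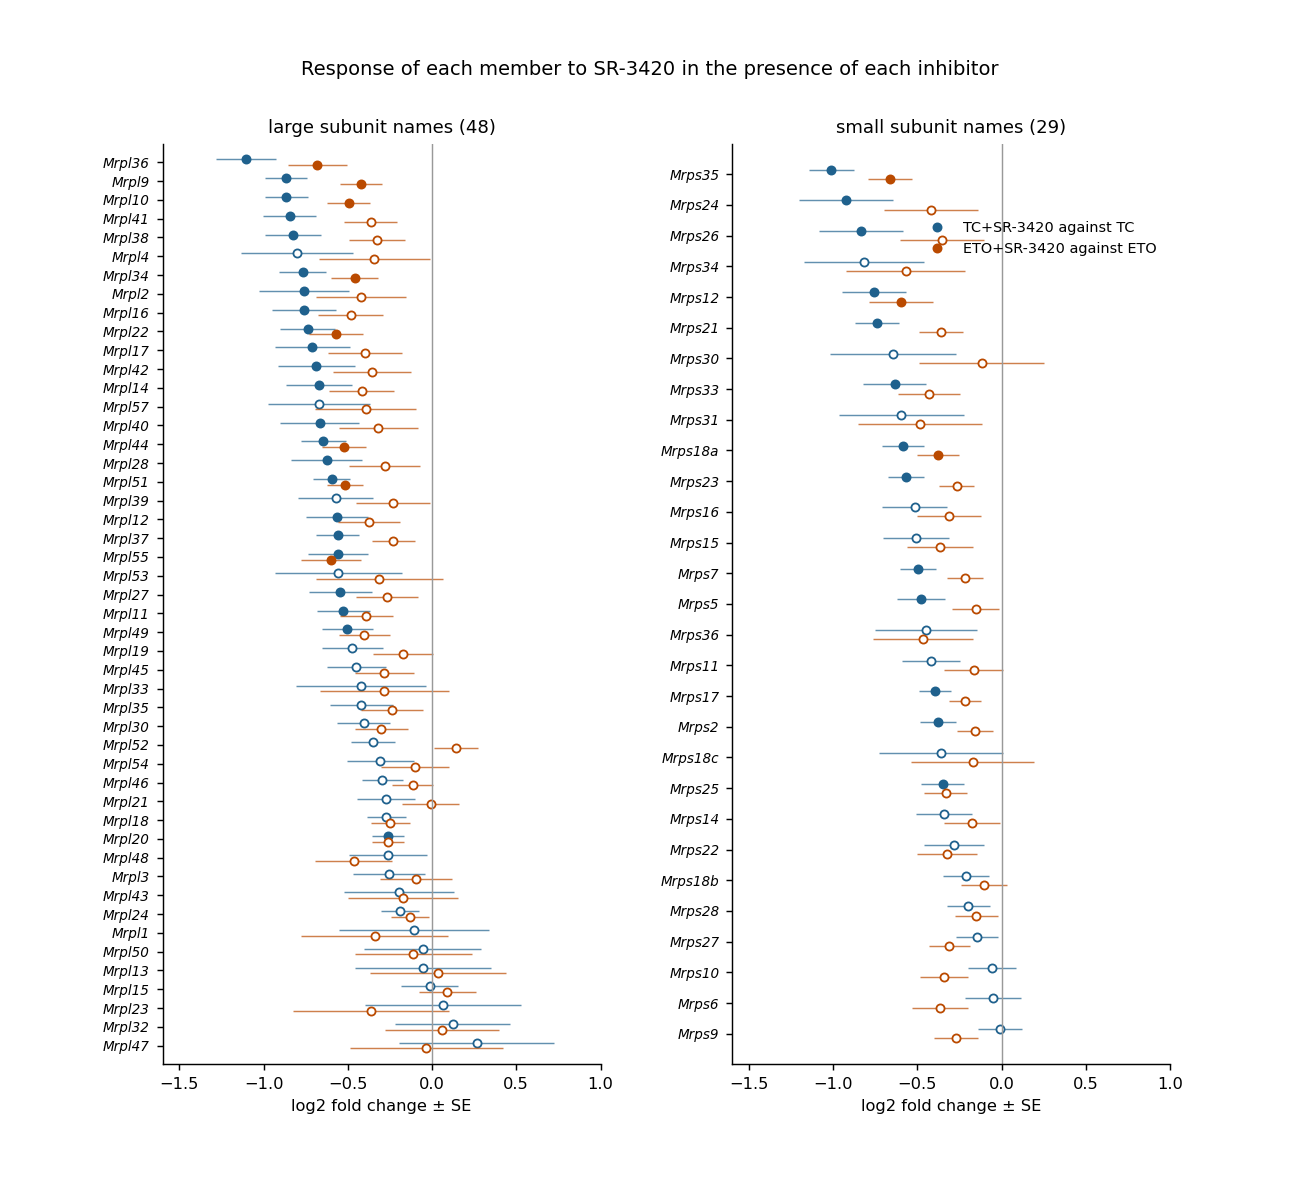
Log2 fold change ± SE of each member for TC+SR-3420 against TC (blue) and ETO+SR-3420 against ETO (orange), large subunit names on the left and small subunit names on the right, ordered by the first; filled points passed adjusted p under 0.05. Points lie left of 0 for 74 and 73 of the 77 members, with 36 and 11 filled.

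The members' promoters were searched for 3 short words, on both strands of the window from 250 bases before to 50 bases after the start in RefSeq's GRCm38.p6 annotation. The words were CGCATGCG, bound by NRF1, CCGGAAG, bound by GABP and other ETS factors, and AAGATGGCG, bound by YY1, all known for promoters of nuclear genes of mitochondria. The words do not contain one another. No entry was matched for Mrpl4, Mrpl13, Mrpl15, Mrpl19, Mrpl38, Mrpl54, Mrps28, Mrps34 and Mrps35. Of the 68 members of 77 matched by symbol, 7 held the NRF1 word (10.3%, against 2.07% of all 27025 genes and 4.38% of the 9649 tested genes with a promoter), 25 the ETS word (36.8%, against 9.93% and 19.5%) and 8 the YY1 word (11.8%, against 1.64% and 3.48%). Any of the 3 was found in 35 members (51.5%, against 12.8% and 25.4%). Of those 35, 17 fell with SR-3420 in the presence of TC, and so did 17 of the 33 without a word, with medians of −0.56 and −0.45. In the presence of ETO, 8 of the 35 fell and 2 of the 33, with medians of −0.31 and −0.33. Of all tested genes with and without a word, 18.3% and 19.9% were lower with TC and 10.5% and 13.1% with ETO. A word is only a match of letters, and binding was not measured here.

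The promoters shown are those of the members named by smallest p in this comparison that hold a word before the start. They let the words be seen in genes called lower before the length and GC trends were removed. Each gives the 250 bases before the start on the gene's strand, 5′ to 3′, with its place in GRCm38.p6 and the word in capitals: the NRF1 word in Mrpl9 and Mrpl10, the YY1 word on the other strand in Mrpl36 and the ETS word in Mrpl34 and Mrpl51.
Mrpl9 (chr3:94443086-94443335, plus strand): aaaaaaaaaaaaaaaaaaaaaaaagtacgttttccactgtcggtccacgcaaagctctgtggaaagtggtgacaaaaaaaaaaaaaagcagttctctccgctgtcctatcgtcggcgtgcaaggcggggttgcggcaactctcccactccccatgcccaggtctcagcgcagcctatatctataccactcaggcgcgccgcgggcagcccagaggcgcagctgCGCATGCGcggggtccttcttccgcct
Mrpl10 (chr11:97041332-97041581, plus strand): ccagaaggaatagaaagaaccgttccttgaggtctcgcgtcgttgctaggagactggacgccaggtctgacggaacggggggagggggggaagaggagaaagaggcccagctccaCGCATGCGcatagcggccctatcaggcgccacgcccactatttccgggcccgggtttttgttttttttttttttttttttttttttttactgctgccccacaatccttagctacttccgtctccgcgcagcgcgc
Mrpl36 (chr13:73330759-73331008, plus strand): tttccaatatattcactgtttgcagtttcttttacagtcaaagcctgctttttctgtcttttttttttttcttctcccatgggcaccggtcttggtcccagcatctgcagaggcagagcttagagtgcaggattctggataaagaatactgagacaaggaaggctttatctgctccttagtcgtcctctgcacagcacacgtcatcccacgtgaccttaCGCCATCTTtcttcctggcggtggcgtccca
Mrpl34 (chr8:71464676-71464925, plus strand): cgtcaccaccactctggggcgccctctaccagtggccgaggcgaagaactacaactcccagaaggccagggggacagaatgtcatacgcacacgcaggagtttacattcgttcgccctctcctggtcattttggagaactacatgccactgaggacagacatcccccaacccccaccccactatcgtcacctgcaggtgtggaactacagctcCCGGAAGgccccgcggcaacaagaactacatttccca
Mrpl51 (chr6:125191950-125192199, plus strand): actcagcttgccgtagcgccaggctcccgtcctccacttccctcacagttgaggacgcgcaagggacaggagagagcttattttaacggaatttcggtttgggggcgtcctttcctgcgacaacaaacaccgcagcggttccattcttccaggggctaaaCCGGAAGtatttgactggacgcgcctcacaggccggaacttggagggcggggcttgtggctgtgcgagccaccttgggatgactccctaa

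Etomoxir in place of triacsin C asks whether lipolysis acts without entry of fatty acids into mitochondria. SR-3420 lowered 11 members in ETO-treated cells and raised none, that is 14.3% lower, beside 12.8% of all genes lower and 12.5% higher. Of the 77 members 73 were below 0 (64 with the length and GC trends removed), with a median of −0.32 against 0.01 over all genes. Of the 11, 8 carry large subunit names and 3 small subunit names. The count was higher when replicate numbers were used as a block, as the closing section gives.

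The test was edgeR's quasi-likelihood test again, with 24 members at an unadjusted p under 0.05, all lower (31.2%, against 37.2% of all genes in either direction), and 19 lower and none higher by DESeq2 (24.7% lower, against 15.5% of all genes). In 24 members every ETO+SR-3420 sample lay below every ETO sample, against 16.5% of all genes. The 11 became 6 without ETO replicate 1, 4 without ETO replicate 2, 5 without ETO+SR-3420 replicate 2, and 0 when only these 2 groups were fitted. With the length and GC trends removed 13 were lower, 7 of them among the 11, which is 16.9% against 22.6% of all genes; Mrpl44 (−0.39), Mrpl9 (−0.36), Mrpl34 (−0.33) and Mrps18a (−0.21) were then not past the threshold.

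Mrps35 again had the smallest p, with 51.1, 49.0 and 56.8 CPM with ETO and 31.6, 28.2 and 39.3 CPM with ETO+SR-3420 (−0.66 ± 0.13, edgeR adjusted p = 0.00277). Mrpl51 had 52.2, 53.7 and 51.0 CPM against 37.0, 35.1 and 37.7 CPM (−0.52 ± 0.11, edgeR adjusted p = 0.00357), and Mrpl44 33.3, 37.3 and 38.9 CPM against 23.3, 26.3 and 26.6 CPM (−0.52 ± 0.13, edgeR adjusted p = 0.0108). In these 3 genes no sample of one group reached the other. Mrpl36 fell from 41.8, 39.8 and 33.6 CPM to 28.3, 24.4 and 19.1 CPM (−0.68 ± 0.17, edgeR adjusted p = 0.0118) and Mrpl10 from 119, 116 and 98.1 CPM to 86.3, 73.2 and 77.5 CPM (−0.49 ± 0.13, edgeR adjusted p = 0.0126). Both were apart between the groups as well.

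Mrpl22, which lines the exit tunnel, fell by 0.57 (SE 0.16), Mrpl9 by 0.42 (SE 0.12) and Mrpl55 by 0.60 (SE 0.18), with edgeR adjusted p of 0.019, 0.024 and 0.026. Mrpl55 had 36.7, 30.2 and 24.3 CPM with ETO and 22.5, 18.6 and 19.0 CPM with ETO+SR-3420. Mrpl34 fell by 0.46 (SE 0.14, edgeR adjusted p = 0.0265). Of the members followed by role, Mrps12 fell by 0.60 (SE 0.19, edgeR adjusted p = 0.0347) and Mrps18a by 0.38 (SE 0.12, edgeR adjusted p = 0.0406). Mrps12 is the called member whose groups overlapped, since ETO replicate 3 at 27.6 CPM was below ETO+SR-3420 replicate 1 at 29.2 CPM. The stalk genes Mrpl11 (−0.39 ± 0.16) and Mrpl12 (−0.37 ± 0.18) did not pass here, nor did Mrpl45, Mrps30, Mrps36, Mrps18b, Mrps18c or any of the 4 disease genes. With the trends removed Mrpl12 (−0.21, edgeR adjusted p = 0.0352) and Mrps34 (−0.50, edgeR adjusted p = 0.0082) passed, and Mrps18b (0.05) and Mrps30 (0.02) were above 0.

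**Figure D4:**
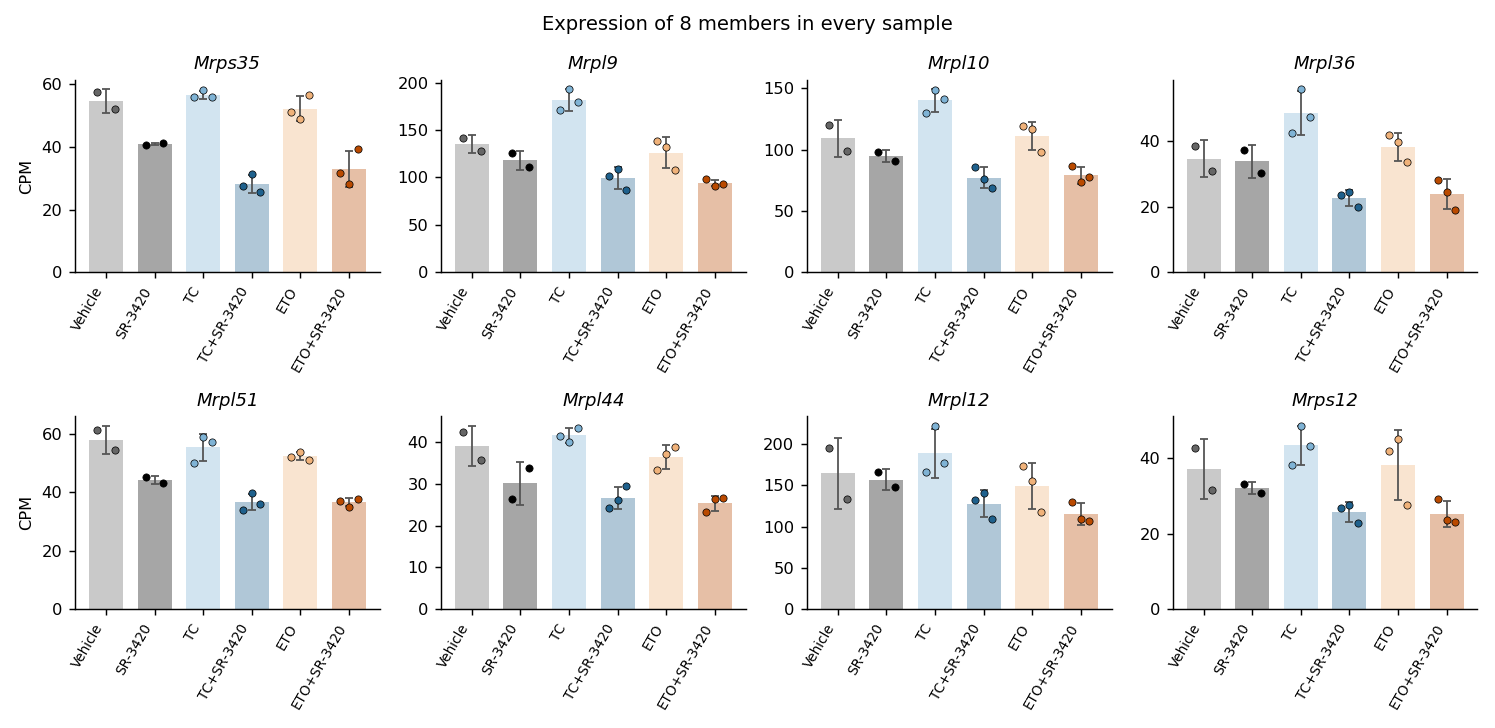
CPM of 8 members in every sample; bars are group means, error bars the SD, and points the samples (n = 2 for Vehicle and SR-3420, n = 3 otherwise). In the first 6 genes all samples with SR-3420 and an inhibitor lie below all samples with the same inhibitor alone. Mrpl12 and Mrps12 overlap in the ETO groups.

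The responses in the presence of TC and of ETO share no sample. All 11 members that fell with ETO also fell with TC, which is 100% of the first list and 30.6% of the second, against 75% and 48.8% of all genes lower in each. With the trends removed 8 members were lower in both, 61.5% of those lower with ETO and 40% of those lower with TC, against 69.2% and 66.1% of all genes. Both log2 fold changes were below 0 for 71 of 77 members (92.2%, against 39.2% of all genes), or 54 with the trends removed (70.1%, against 38.7%), and in 20 members all samples with SR-3420 were lower in both (26%, against 12.3%). Across the 77 members the 2 responses had a correlation of 0.67 and across all 12786 genes one of 0.73, given as descriptions, since genes are not independent and each response is measured in 1 set of libraries.

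Whether an inhibitor changed the response was tested by the difference between the response with and without it. For TC, no member differed at an adjusted p under 0.05 by edgeR, against 2.51% of all genes in either direction, with 10 members at an unadjusted p under 0.05 (13%, against 16.7% of all genes) and 3 by DESeq2. The median difference was −0.27 against −0.04 over all genes, and 0.02 with the length and GC trends removed, where 1 member passed. For the DESeq2 count and this last count the share of all genes is not given here, so neither can be set against all genes. Mrpl36 came nearest (−1.07 ± 0.28, edgeR adjusted p = 0.0596), followed by Mrpl9 (−0.68 ± 0.20, edgeR adjusted p = 0.0925) and Mrpl10 (−0.66 ± 0.20, edgeR adjusted p = 0.11). In all 3 the difference took in both a higher level with TC and a lower one with TC+SR-3420.

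For ETO, no member and 0% of all genes had a different response by edgeR. The median was −0.07 against 0.00 over all genes, 1 member (1.3%, against 2.4% of all genes) had an unadjusted p under 0.05 and none passed by DESeq2. That 1 was Mrpl36 (−0.65 ± 0.27, edgeR adjusted p = 0.988). Mrps9 (−0.35 ± 0.20) and Mrpl55 (−0.48 ± 0.28) came next.

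The samples with SR-3420 were also compared among themselves, to see what an inhibitor adds once lipolysis is on. TC+SR-3420 against SR-3420 gave no member past the threshold by edgeR, while 3.55% of all genes were lower and 1.02% higher. An unadjusted p under 0.05 was found for 5 members (6.49%, against 19.5% of all genes). DESeq2 called 1 lower, beside 5.89% of all genes lower and 3.73% higher. The median was −0.11 against 0.02. Mrps35 was closest, with 40.6 and 41.1 CPM with SR-3420 alone against 27.4, 31.3 and 25.6 CPM (−0.54 ± 0.15, edgeR adjusted p = 0.0545), ahead of Mrpl36 (−0.58 ± 0.19) and Mrpl55 (−0.47 ± 0.20). In Mrps35 all TC+SR-3420 samples were below both SR-3420 samples.

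ETO+SR-3420 against SR-3420 gave none by edgeR, 8 at an unadjusted p under 0.05 (10.4%, against 10% of all genes) and none by DESeq2, with 0.00782% of all genes past the threshold in either direction. The median was −0.15 against 0.00. The smallest p were those of Mrpl55 (33.4 and 27.1 CPM against 22.5, 18.6 and 19.0 CPM, −0.59 ± 0.20, edgeR adjusted p = 0.378), Mrps17 (−0.30 ± 0.11) and Mrpl20 (−0.29 ± 0.11).

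The members were then set beside the genes they work with. For these lists, with TC means TC+SR-3420 against TC, and with ETO means ETO+SR-3420 against ETO. Of 6 further mitoribosome subunits with other names, Dap3 (−0.48 ± 0.13) and Aurkaip1 (−0.63 ± 0.17) fell with SR-3420 in the presence of TC, and none fell in the presence of ETO. Of 26 genes of mitoribosome assembly and rRNA processing, 12 fell with TC and 6 with ETO, among them the rRNA methyltransferase gene Mrm1 (−1.68 ± 0.23 with TC), the endoribonuclease gene Ybey (−1.53 ± 0.18 and −1.11 ± 0.18) and the GTPase gene Mtg1 (−1.30 ± 0.21 and −1.03 ± 0.21). Lower were thus 33.3% and 0% of the 6 and 46.2% and 23.1% of the 26, beside 19.7% and 12.8% of all genes. None of these lists' genes rose in this fit, but with the trends removed 1 of the 6 and 2 of the 26 were higher with TC, beside 1 and 11 lower, and 1 and 9 were lower with ETO. Of all genes, 23.7% and 22.6% were then lower.

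Of 16 mitochondrial translation factors, 9 fell with TC and 7 with ETO, with the smallest p in both for Taco1, the translational activator of the COX1 mRNA (−1.52 ± 0.18 and −0.99 ± 0.18), and the elongation factor gene Gfm2, which acts in ribosome recycling (−0.96 ± 0.13 and −0.64 ± 0.13). Of 17 mitochondrial aminoacyl-tRNA synthetases, 8 fell with each inhibitor, with the smallest p in both for Iars2 (−0.82 ± 0.10 and −0.64 ± 0.10). Of 9 genes of mitochondrial transcription and DNA maintenance, 2 fell with TC, Polg2 and Tefm, and none with ETO. Lower with TC and ETO were 56.2% and 43.8% of the translation factors and 47.1% and 47.1% of the synthetases. The last list had 22.2% and 0% lower, and all genes 19.7% and 12.8%, so its share with TC was near that of all genes. After the trends were removed, the lower genes were 11 and 9 of the translation factors, 10 and 12 of the synthetases and 3 and 1 of the last list, of which 1 was then higher with TC. Of all genes, 23.7% and 22.6% were then lower.

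Of 9 mitochondrial biogenesis regulators, 3 rose with SR-3420 in the presence of TC, the coactivator gene Pprc1 (0.92 ± 0.18), Nrf1 (0.76 ± 0.19) and Myc (1.89 ± 0.16). In the presence of ETO 2 rose. Of all genes, 17.3% were higher and 19.7% lower in the first comparison, and 12.5% higher and 12.8% lower in the second. With the trends removed 5 and 3 rose, beside 28% and 22.5% of all genes. Of nuclear-encoded respiratory chain subunits, partners of the proteins that the mitoribosome makes, 58 of 80 were lower and 1 higher with TC (median −0.90), and 30 lower and 1 higher with ETO (median −0.49). Cytosolic ribosomal proteins gave 1 lower and 1 higher of 80 with TC (median 0.10) and 9 higher with ETO (median 0.36), against medians of −0.50 and −0.32 for the mitochondrial ones. With the length and GC trends removed, 33 of 79 cytosolic ribosomal protein genes were higher and 1 lower with TC (median 0.47). With ETO 35 were higher (median 0.52). Of 80 respiratory chain genes, 48 and 37 were then lower and 1 higher in each (−0.52 and −0.36). The members' medians were −0.18 and −0.20. Of all genes, 28% were then higher and 23.7% lower with TC, and 22.5% and 22.6% with ETO.

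**Figure D5:**
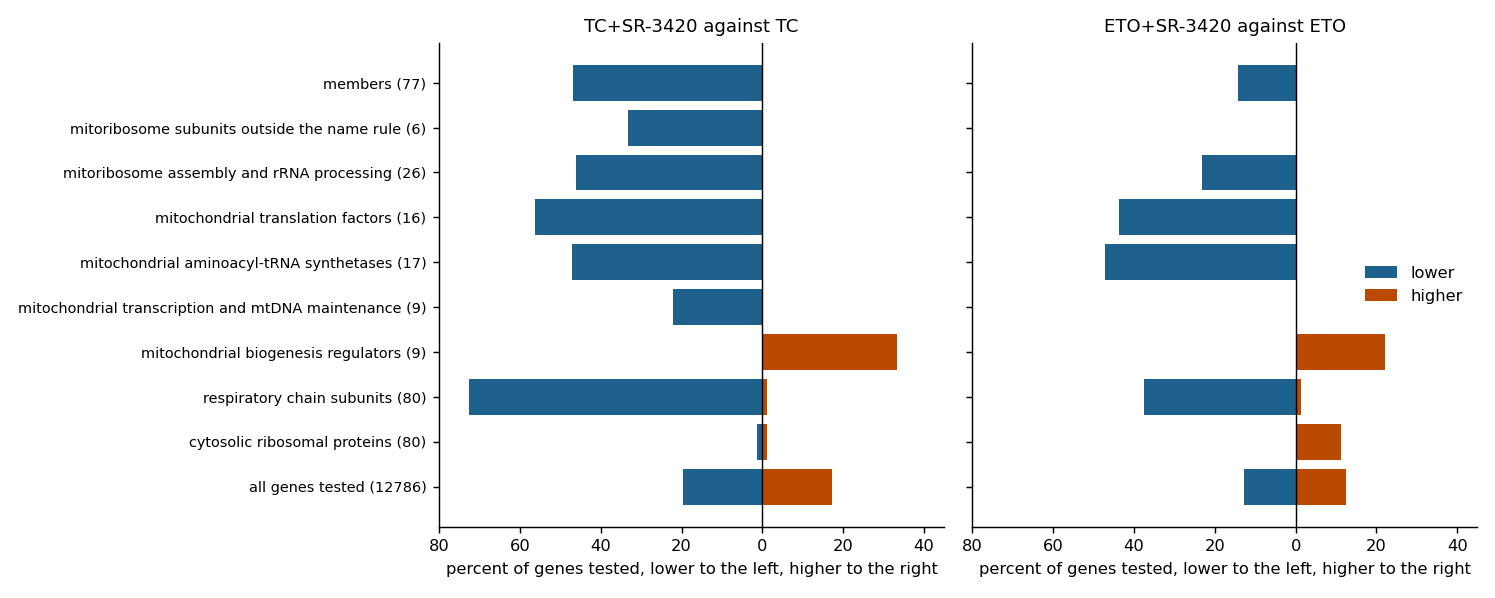
Percent of each gene list's tested genes (number in parentheses) that were lower (blue, to the left) or higher (orange, to the right) at adjusted p under 0.05 with SR-3420 in the presence of TC (left) and ETO (right). The members reach 46.8% and 14.3% lower, beside 19.7% and 12.8% of all genes tested.

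Markers of cell types moved in the same comparisons. From Vehicle to SR-3420 the summed adipocyte markers went from 16289 and 14387 CPM to 12790 and 11107 CPM, with 1 of 11 lower (Pparg), and the summed fibroblast markers from 1894 and 1638 CPM to 4061 and 2955 CPM, with none of 8 past the threshold by edgeR. With the length and GC trends removed, 3 of the 8 fibroblast markers were higher with SR-3420 alone, 5 with TC+SR-3420 and 7 with ETO+SR-3420, and 1, 5 and 7 of the 11 adipocyte markers were lower, with 1 higher with TC+SR-3420. The summed level of the 12 adipocyte markers was 15900, 17310 and 16339 CPM with TC and 6630, 6512 and 6709 CPM with TC+SR-3420, and went from 15608, 14269 and 15174 CPM with ETO to 9093, 6175 and 10498 CPM with ETO+SR-3420. Of the 11 tested, 6 fell and 1 rose in TC+SR-3420 against TC, and 4 fell in ETO+SR-3420 against ETO. Adipoq fell most clearly (−1.68 ± 0.21 and −1.24 ± 0.21). The 8 preadipocyte and fibroblast markers had 3 higher in TC+SR-3420 against TC and 5 in ETO+SR-3420 against ETO. The endothelial marker Kdr rose in both comparisons (0.96 ± 0.31 and 1.28 ± 0.30). In TC+SR-3420 against TC it was not past the threshold once the trends were removed (0.69). Both immune markers tested, Cd68 and Cd79a, rose with TC against Vehicle and fell with TC+SR-3420 against TC. With ETO+SR-3420 against ETO, Cd79a fell (−2.86 ± 0.79) and Cd68 did not pass (0.15 ± 0.23). In TC against Vehicle, 3 of the 11 adipocyte markers were lower, Ppargc1a (−1.04), Prdm16 (−2.14) and Pparg (−1.48), and none higher. In TC+SR-3420 against SR-3420, 5 of the 11 were lower and none higher. Of the defining brown adipocyte markers, Dio2 was near 0 and Ucp1 low throughout. The part of these shifts in the members' response was not tested.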

How the data were processed

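The authors deposited raw counts per gene for all 16 samples; per the study's methods and processing notes, reads were mapped to mm9 with STAR 2.4.2a, reduced with HOMER to 1 read per position and length, and counted with iRNA-seq. Strand use is not given in the sources used here. The deposited counts were analysed with edgeR 4.0.16 in R 4.3.3: TMM scaling, filterByExpr by group (12786 of 20295 genes kept), 1 quasi-likelihood model of the 6 group means, and Benjamini-Hochberg adjustment over all genes tested. CPM values use TMM-scaled totals, and RPKM divides them by the counted length of the table. DESeq2 1.42.0 and the other settings listed in the closing section were alternatives. The model was tested on simulated data, but no outcome of that test is reported here. Replicate pairs differed by more than sampling noise in all 14 pairs. GC content came from the mm9 genome and its annotation for all 77 members.

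Named in each comparison were up to 8 members per direction with the smallest p among those with adjusted p under 0.05, or, where fewer than 3 passed, the 3 smallest p; the 5 highest and 5 lowest per length; members chosen by role (stalk, decoding centre, disease genes, Mrpl44 and Mrpl45, the Mrps18 paralogues, Mrps30, Mrps36); and genes of the lists. Named outside these rules were Mrpl34 in ETO+SR-3420 against ETO, and Mrps28 and the 3 members above 0 in TC+SR-3420 against TC. The members and lists were chosen with earlier results of these data known. Cytosolic ribosomal proteins and respiratory chain subunits were taken by symbol, and genes of the other lists that are not in the table were not analysed here. The first Vehicle replicate and the second SR-3420 replicate were not analysed here. Promoter sequences are RefSeq's for GRCm38.p6, and figures were drawn with matplotlib 3.10.9.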

Additional observations from a re-analysis of the deposited data

How the results depend on the processing

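ETO against Vehicle and the response difference for ETO gave 0 members past the threshold under every setting. For the members named, 760 alternatives kept direction and side of the threshold, 65 gained the call, 62 lost it and 15 reversed. Below, the cause of each change was not tested, except that leaving out samples or fitting only the compared groups gives the test fewer samples.

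Counts of members moved as follows. With DESeq2: SR-3420 against Vehicle 3, TC against Vehicle 3 higher and 1 lower, ETO+SR-3420 against ETO 19 lower, TC+SR-3420 against SR-3420 1, response difference for TC 3. TC against Vehicle gave 0 higher with no filter on low counts, 2 with at least 10 counts in every sample and 0 with only the compared groups; TC+SR-3420 against SR-3420 gave 1 with at least 10 counts, and ETO+SR-3420 against ETO 0 lower with only the compared groups. With length and GC trends removed, SR-3420 against Vehicle gave 2 lower (2.6%), beside 11.4% of all genes lower and 11.8% higher. TC against Vehicle gave 4 lower (5.19%) and 1 higher, beside 13% and 9.35% of all genes. TC+SR-3420 against TC gave 20 lower (26%) and 1 higher, beside 23.7% and 28%. TC+SR-3420 against SR-3420 gave 4 lower (5.19%), beside 10.5% of all genes lower and 7.48% higher, and the response difference for TC gave 1. For the response difference for TC, here and below, no share of all genes stands beside the counts outside the main fit. Those counts cannot be set against all genes.

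Median log2 fold changes moved with no filter to 0.12 (TC against Vehicle), −0.44 (TC+SR-3420 against TC) and −0.20 (response difference for TC), and with only the compared groups to 0.14 (TC against Vehicle). With the trends removed they were −0.17 (SR-3420 against Vehicle), −0.0797 (TC against Vehicle), −0.18 (TC+SR-3420 against TC), −0.20 (ETO+SR-3420 against ETO), −0.0681 (ETO+SR-3420 against SR-3420) and 0.0225 (response difference for TC). With these trends removed, log2 fold changes reversed to 0.0407 for Mrps16 and 0.15 for Mrps18b (TC+SR-3420 against TC), and to 0.0476 for Mrps18b and 0.0163 for Mrps30 (ETO+SR-3420 against ETO).

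Replicate numbers are shared between groups, but the labels do not say what a number marks. Of 35 same-numbered pairs of samples, 27 had a correlation of deviations over 0.1 (lowest −0.29, highest 0.83). Their mean was 0.41, against −0.20 over the 71 pairs with different numbers, and 11 of 16 samples correlated best with one of their own number. The 8 pairs not over 0.1 all included TC replicate 1 or ETO+SR-3420 replicate 2. Because of these 8 pairs the numbers were not taken as a pairing in the main fit. The correlations are a hint from the data, not from the design, and the counts with a block differ much from those without. With a replicate block 4 members passed for SR-3420 against Vehicle, all lower, beside 7.94% of all genes lower and 11.1% higher. For TC against Vehicle 10 were higher and 1 lower, beside 12% and 12.1% of all genes. For TC+SR-3420 against TC 57 were lower (74% against 28.7% of all genes), and for ETO+SR-3420 against ETO 36 (46.8% against 22.5%). For TC+SR-3420 against SR-3420 9 passed, all lower, beside 13.5% of all genes lower and 9.99% higher. For ETO+SR-3420 against SR-3420 12 passed, all lower, beside 8.42% and 5.95%, and for the response difference for TC 7. With the replicate block and the trends removed 10 passed for SR-3420 against Vehicle, all lower (13%, beside 15.9% of all genes lower). For TC against Vehicle 4 were higher and 9 lower, beside 14.8% and 17.9% of all genes. For TC+SR-3420 against TC 31 were lower (40.3% against 28% of all genes) and 4 higher (beside 33.5%). For ETO+SR-3420 against ETO 28 were lower (36.4% against 28%). For TC+SR-3420 against SR-3420 16 passed, 15 of them lower, beside 16.3% of all genes lower and 14.8% higher. For ETO+SR-3420 against SR-3420 14 passed, 12 of them lower, beside 8.48% and 4.59%, and for the response difference for TC 7. The medians were then −0.15 (SR-3420 against Vehicle), −0.0408 (TC against Vehicle), −0.175 (TC+SR-3420 against TC) and −0.20 (ETO+SR-3420 against ETO). They were −0.0703 (ETO+SR-3420 against SR-3420) and −0.0207 (response difference for TC). The 4 reversed values were then 0.0395, 0.15, 0.0508 and 0.0129.

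Leaving out 1 sample at a time, where a lone sample is assumed to vary like the other groups, gave counts of 0 to 1 (SR-3420 against Vehicle; TC against Vehicle, higher and lower), 21 to 29 lower (TC+SR-3420 against TC), 4 to 12 lower (ETO+SR-3420 against ETO) and 0 to 0 elsewhere. Medians ran from −0.31 to −0.17 (SR-3420 against Vehicle), 0.13 to 0.21 (TC against Vehicle), −0.0796 to −0.0082 (ETO against Vehicle), −0.53 to −0.45 (TC+SR-3420 against TC), −0.32 to −0.27 (ETO+SR-3420 against ETO), −0.13 to −0.0485 (TC+SR-3420 against SR-3420), −0.19 to −0.10 (ETO+SR-3420 against SR-3420), −0.33 to −0.18 (response difference for TC) and −0.14 to 0.0072 (response difference for ETO). In ETO+SR-3420 against ETO the log2 fold change ran from −0.49 to 0.11 for Mrps30 (above 0 without ETO replicate 1 or ETO+SR-3420 replicate 2 or 3), from −0.235 to 0.0781 for Mrpl3 and from −0.41 to 0.0987 for Mrps18c (both above 0 without ETO replicate 3 or ETO+SR-3420 replicate 1).

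The cells are 1 line at 1 time after treatment, Vehicle and SR-3420 had 2 samples each, and only mRNA was measured, so nothing here speaks of ribosomes or translation. The trends over length and GC content differ between libraries, and removing them also removes any part of a response that follows length or GC. Depth limits the members with few counts, such as Mrpl23 with 5 to 14 per sample.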
